A study of Mus musculus with 6 samples.

Results

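The genes described here are 36 genes for fatty acid uptake, fatty acid oxidation and ketone use in the mouse heart. They were taken by gene symbol from a table of 26835 genes measured by RNA sequencing, and all 36 were found and passed the filter on low values, as part of 10329 tested genes. RNA came from hearts of wild type C57BL/6 mice (7 to 8 weeks old, about 20 g), with 2 libraries in each of 3 groups. CFZ_EA mice received carfilzomib, an irreversible proteasome inhibitor used against multiple myeloma, at 8 mg/kg together with electroacupuncture, a current passed through needles, at the acupoint PC6. CFZ mice received carfilzomib at 8 mg/kg alone, and control mice received 10% DMSO by intraperitoneal injection. The series asks how electroacupuncture adjusts cardiac gene expression in carfilzomib-treated mice. Days 0, 2, 4 and 6 stand in the labels of each library, with no event named for any of them. Nothing states that replicates are different animals, and p-values therefore reflect the scatter of the sequenced samples, part or all of which may be technical.

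The adult heart takes most of its energy from fatty acids. These enter the cardiomyocyte through membrane carriers, are tied to coenzyme A, cross into the mitochondrion as carnitine esters and are shortened stepwise by beta-oxidation, whose electrons pass through the electron transfer flavoprotein to the respiratory chain. The heart also burns ketone bodies made by the liver, and the nuclear receptor PPAR-alpha switches on many of the genes of fatty acid oxidation.

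No member passed the test in any comparison. In edgeR's quasi-likelihood test a gene was called at a Benjamini-Hochberg adjusted p under 0.05 over all tested genes. For CFZ against control 0 of 36 members were called, beside 0.029% of all tested genes (3 of 10329). For CFZ_EA against CFZ 0 of 36 were called, beside 0.0194% of all genes (2), and for CFZ_EA against control 0 of 36, beside 0% of all genes (0). At an unadjusted p under 0.05 the count of members was also 0 in each of these comparisons, while the share of all genes was 7.72%, 3.09% and 5.13% in the same order. DESeq2 and limma called 0 members in each as well, although DESeq2 called 1.34%, 0.532% and 0.503% of all genes.

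The libraries differed in ways that touch the values below. Estimated counts totalled 50013990 to 75742448 per library. Control replicate 2 stood apart on the first principal component (35.7% of the variance), with a score of 49.0 against -24.4 to 0.84 for the other libraries. Mitochondrially encoded genes took 14.8% of its counts, against 17.9% to 21.3% in the other libraries. With these genes left out of the fit, the median log2 fold change of the members was 0.19 for CFZ against control (35 of 36 above 0). It was -0.06 for CFZ_EA against CFZ (9 of 36) and 0.17 for CFZ_EA against control (33 of 36). A link between the mitochondrial share and the members' levels was not tested. Markers of fibroblasts and matrix summed to 983 and 1016 FPKM in CFZ_EA, 740 and 665 FPKM in CFZ, and 953 and 1991 FPKM in control. Macrophage markers summed to 248 and 292 FPKM in CFZ_EA, 248 and 281 FPKM in CFZ, and 327 and 953 FPKM in control, so that control replicate 2 was the highest library for both lists. All 12 fibroblast and all 10 macrophage markers were detected in every library. Atrial markers summed to 978 and 5731 FPKM in CFZ_EA, 347 and 213 FPKM in CFZ, and 2865 and 1622 FPKM in control, and CFZ_EA replicate 2 was the highest. Of the cardiomyocyte markers that define the labelled tissue, 16 of 16 passed the filter.

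As a group the members were abundant. FPKM, fragments scaled to transcript length and sequencing depth, allows levels of different genes to be compared. Mean FPKM over the 6 libraries ran from 1.92 for Ppara to 6244 for Fabp3, with a median of 106 against 4.66 over all tested genes. Of the 36 members, 22 were among the 500 most abundant tested genes and 4 among the top 100 (Fabp3 at rank 13, Acaa2 at 67, Ech1 at 71 and Etfb at 75). Only Lipe, Cpt1a, Ehhadh and Ppara averaged under 10 FPKM. The members took 2.53% and 2.20% of all counts in CFZ_EA, 2.47% and 2.53% in CFZ, and 2.45% and 2.10% in control. Between libraries most members stayed within 2-fold. The ratio of a member's highest to its lowest library had a median of 1.35 and ranged from 1.14 for Slc27a1 to 2.59 for Bdh1. The 2 members Bdh1 and Echs1 spanned over 2-fold.

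**Figure D1:**
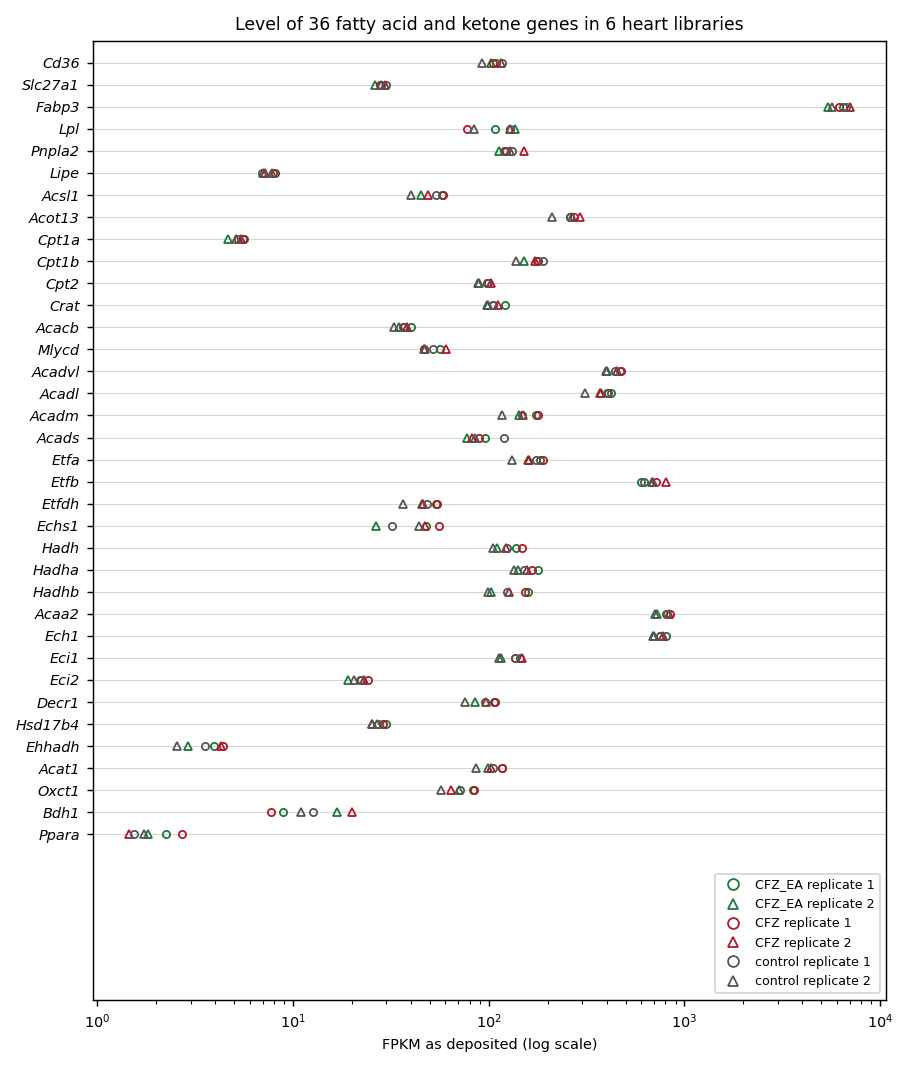
FPKM as deposited (log axis) of the 36 genes in rows ordered by role, with 1 symbol per library, coloured by group. Levels differ between genes from 1.92 to 6244 FPKM on average, while the 6 libraries of a gene lie within a ratio of 1.14 to 2.59.

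Promoter sequence was examined for the motifs to which PPAR-alpha and related nuclear receptors bind. RefSeq promoters on GRCm38.p6, each from 250 bases before to 50 bases after the gene start, matched 28 of the 36 members. The direct repeat DR1, AGGTCA followed after any 1 base by AGGTCA, was in 0 of 28 members, on either strand, and in 0.0481% of 27025 genes. The motif TCAAGGTCA, named for the oestrogen-related receptors, was in 0 of 28 and in 0.466% of all genes. Both contain the half-site AGGTCA, which alone was in 6 of 28 members (21.4%) and in 18.1% of all genes, a share near the background. Both longer motifs are so rare over all genes that 0 of 28 would be usual for any genes and sets the members apart in no way. A match is a description of letters, and no match says only that the letters are not in this window. The stretches of 50 bases that hold the half-site before the start are shown so that the match can be seen in each gene, 5′ to 3′ on the gene's own strand. Capitals mark the half-site, read as AGGTCA on the gene's strand or as TGACCT where it lies on the other strand. They are Cd36 on the minus strand (chr5:17836097-17836146), Cpt1a on the plus strand (chr19:3323185-3323234), Acadvl on the minus strand (chr11:70015488-70015537), Acadm on the minus strand (chr3:153944844-153944893) and Echs1 on the minus strand (chr7:140116477-140116526).
Cd36: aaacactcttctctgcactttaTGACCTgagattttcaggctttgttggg
Cpt1a: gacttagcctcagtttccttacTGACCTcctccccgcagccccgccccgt
Acadvl: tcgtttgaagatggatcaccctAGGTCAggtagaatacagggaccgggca
Acadm: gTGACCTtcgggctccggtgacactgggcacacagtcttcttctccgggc
Echs1: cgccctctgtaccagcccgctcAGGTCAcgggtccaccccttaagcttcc
The Cd36 and Cpt1a stretches lie inside the gene bodies as the deposited table draws them (Cd36 on chromosome 5 from 17781690 to 17888801, Cpt1a on chromosome 19 from 3322334 to 3385733), because the table's models begin upstream of the RefSeq start. The match in Acacb lies after its start and is not printed.

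Uptake and trapping was led by Fabp3, the fatty acid binding protein that carries fatty acids through the cytosol of heart muscle (chromosome 4, 130308595 to 130315463). Fabp3 measured 6457 and 5431 FPKM in CFZ_EA, 6192 and 7026 FPKM in CFZ, and 6710 and 5651 FPKM in control. CFZ replicate 2 was the highest and CFZ_EA replicate 2 the lowest, and the 3 groups overlapped. A near-identical copy, Fabp3-ps1, measured 1.89% to 2.03% of Fabp3 in every library, and reads may be shared between them. Lpl, the lipoprotein lipase that frees fatty acids from circulating triglyceride, measured 108 and 136 FPKM in CFZ_EA, 77.7 and 128 FPKM in CFZ, and 128 and 84.1 FPKM in control. The low Lpl libraries were CFZ replicate 1 and control replicate 2, and replicates differed more than groups. The membrane translocase Cd36 averaged 106 ± 4.65 FPKM in CFZ_EA, 111 ± 7.60 FPKM in CFZ and 104 ± 16.9 FPKM in control (SD, n = 2 each). Slc27a1, a fatty acid transport protein of the cell surface, was the most even member.

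Release from stored triglyceride was represented by Pnpla2, the adipose triglyceride lipase that takes the first fatty acid, and Lipe, the hormone-sensitive lipase. Pnpla2 measured 119 and 113 FPKM in CFZ_EA, 123 and 151 FPKM in CFZ, and 132 and 128 FPKM in control. Both CFZ_EA libraries lay below all 4 other libraries, yet the gene was not called in either comparison. Its log2 fold change was -0.24 ± 0.16 for CFZ_EA against CFZ (SE, adjusted p = 0.9997, edgeR) and -0.10 ± 0.16 against control (adjusted p = 0.929, edgeR). With 1 library left out these values ran from -0.42 without CFZ replicate 1 to -0.02 without CFZ replicate 2, and from -0.19 without control replicate 2 to -0.004 without control replicate 1. Lipe stayed between 6.98 and 8.12 FPKM.

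Among enzymes that add or remove coenzyme A, Acsl1 ties long chains to it and Acot13 is a thioesterase that cleaves the tie. Acot13 measured 259 and 266 FPKM in CFZ_EA, 272 and 292 FPKM in CFZ, and 260 and 212 FPKM in control. Both CFZ libraries were above the other 4, and control replicate 2 was the lowest. The log2 fold change was 0.31 ± 0.17 for CFZ against control (adjusted p = 0.691, edgeR), against 0.11 with control replicate 2 left out and 0.54 with control replicate 1 left out. Acsl1 ran from 40.2 FPKM in control replicate 2 to 58.2 FPKM in CFZ replicate 1.

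In the carnitine shuttle, Cpt1b is the muscle form of the outer membrane transferase that sets the pace of entry, Cpt1a is its liver form, Cpt2 is the inner membrane transferase and Crat handles short chains. Cpt1b measured 176 and 151 FPKM in CFZ_EA, 179 and 172 FPKM in CFZ, and 189 and 137 FPKM in control. The control libraries were both the highest and the lowest of the 6. Cpt1b overlaps the model Gm44502 on the same strand, which measured 3.38% of its FPKM, so some reads cannot be assigned with certainty. Cpt1a stayed between 4.64 and 5.59 FPKM. Malonyl-CoA, which blocks Cpt1, is made by Acacb and removed by Mlycd. Mlycd measured 56.6 and 46.8 FPKM in CFZ_EA, 46.9 and 60.8 FPKM in CFZ, and 52.1 and 47.1 FPKM in control, and the groups overlapped. Acacb ran from 32.7 to 40.1 FPKM.

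The acyl-CoA dehydrogenases take the first step of beta-oxidation, with Acadvl for very long, Acadl for long, Acadm for medium and Acads for short chains. Acadvl measured 470 and 400 FPKM in CFZ_EA, 473 and 450 FPKM in CFZ, and 442 and 399 FPKM in control. Acadm measured 175 and 142 FPKM in CFZ_EA, 178 and 149 FPKM in CFZ, and 148 and 117 FPKM in control. In both genes each CFZ library was above each control library, and control replicate 2 was the lowest of the 6. Acadm had a log2 fold change of 0.32 ± 0.20 for CFZ_EA against control (adjusted p = 0.852, edgeR) and of 0.10 without control replicate 2 or 0.58 without control replicate 1. Acads, alone among the 36, was lower in CFZ than in control by the fit. It measured 96.0 and 77.7 FPKM in CFZ_EA, 89.7 and 82.5 FPKM in CFZ, and 120 and 85.2 FPKM in control. Control replicate 1 was the highest library and the groups overlapped. The log2 fold change was -0.21 ± 0.22 for CFZ against control (adjusted p = 0.813, edgeR). It was -0.50 without control replicate 2 and turned sign without control replicate 1, at 0.14.

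Electrons of these dehydrogenases go to the electron transfer flavoprotein, built from Etfa and Etfb, and on through its dehydrogenase Etfdh. Etfb measured 600 and 682 FPKM in CFZ_EA, 714 and 809 FPKM in CFZ, and 621 and 690 FPKM in control. Both CFZ libraries were above the other 4, and the log2 fold change of CFZ against control was 0.28 ± 0.15 (adjusted p = 0.691, edgeR). It was 0.28 without control replicate 2, but 0.13 without CFZ replicate 2 and 0.41 without CFZ replicate 1. For CFZ_EA against CFZ it was -0.24 ± 0.15 (adjusted p = 0.9997, edgeR), -0.09 without CFZ replicate 2 and -0.38 without CFZ replicate 1. Etfb shares exon bases on its strand with Mir7051 and Gm45233, both under 0.1% of its FPKM. Etfa ran from 132 to 189 FPKM and Etfdh from 36.3 to 54.4 FPKM, both lowest in control replicate 2.

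The later steps are hydration by Echs1, oxidation by Hadh and thiolysis by Acaa2, and for long chains all of these are done by the trifunctional protein of Hadha and Hadhb. Acaa2 measured 809 and 721 FPKM in CFZ_EA, 847 and 832 FPKM in CFZ, and 812 and 707 FPKM in control, with both CFZ libraries above the other 4. Echs1 measured 48.1 and 26.4 FPKM in CFZ_EA, 55.5 and 47.1 FPKM in CFZ, and 32.0 and 43.8 FPKM in control. The low library was CFZ_EA replicate 2, and CFZ_EA replicate 1 lay inside the CFZ range. The log2 fold change of Echs1 was -0.45 ± 0.28 for CFZ_EA against CFZ (adjusted p = 0.9997, edgeR) with -0.10 without CFZ_EA replicate 2 and -0.92 without CFZ_EA replicate 1. For CFZ against control it was 0.50 ± 0.28 (adjusted p = 0.693, edgeR) and 0.66 without control replicate 2. Hadha and Hadhb are neighbours on chromosome 5 read in opposite directions, Hadha on the minus strand from 30118304 to 30155162 and Hadhb on the plus strand from 30155248 to 30184593. Hadha averaged 160 ± 26.9 FPKM in CFZ_EA, 161 ± 6.88 FPKM in CFZ and 142 ± 11.6 FPKM in control, and Hadhb averaged 131 ± 39.0, 141 ± 19.1 and 111 ± 17.3 FPKM in the same groups (SD, n = 2 each).

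Unsaturated chains need Ech1, Eci1 and Eci2, which shift double bonds, and Decr1, which reduces them. Ech1 measured 800 and 696 FPKM in CFZ_EA, 748 and 777 FPKM in CFZ, and 748 and 691 FPKM in control, and CFZ replicate 1 and control replicate 1 were equal to 3 digits. Eci1 ran from 113 to 148 FPKM, Eci2 from 19.1 to 24.2 FPKM and Decr1 from 75.9 to 107 FPKM.

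The peroxisome shortens very long chains with Hsd17b4 and the inducible Ehhadh. Ehhadh measured 3.96 and 2.92 FPKM in CFZ_EA, 4.39 and 4.26 FPKM in CFZ, and 3.55 and 2.54 FPKM in control. Both CFZ libraries were above the other 4. Its fitted difference, CFZ over control, was 0.55 ± 0.25 on the log2 scale, or 1.46-fold, with the smallest p of any member (adjusted p = 0.658, edgeR). Leaving out control replicate 2 gave 0.27, and leaving out control replicate 1 gave 0.89. Hsd17b4 measured 29.9 and 26.9 FPKM in CFZ_EA, 28.8 and 25.3 FPKM in CFZ, and 27.1 and 25.4 FPKM in control, with overlap throughout.

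Ketone use begins with Bdh1, which oxidises 3-hydroxybutyrate, followed by Oxct1, which attaches coenzyme A and is the step specific to ketone burning, and Acat1, which splits the product. Acat1 measured 117 and 99.2 FPKM in CFZ_EA, 117 and 103 FPKM in CFZ, and 106 and 86.5 FPKM in control. Oxct1 measured 82.7 and 70.6 FPKM in CFZ_EA, 83.9 and 64.3 FPKM in CFZ, and 70.9 and 56.9 FPKM in control. For both genes control replicate 2 was the lowest library and the groups overlapped. Oxct1 had the smallest p of the members for CFZ_EA against control, with a log2 fold change of 0.32 ± 0.19 (adjusted p = 0.848, edgeR), and 0.11 without control replicate 2 or 0.57 without control replicate 1. Bdh1, named here because it spanned the widest range, measured 8.89 and 16.8 FPKM in CFZ_EA, 7.73 and 20.0 FPKM in CFZ, and 12.7 and 11.1 FPKM in control. The replicates of both carfilzomib groups lay on either side of the control libraries, and its standard error of 0.52 was the largest of the 36.

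Ppara, which encodes PPAR-alpha, was the least abundant member. It measured 2.24 and 1.81 FPKM in CFZ_EA, 2.72 and 1.45 FPKM in CFZ, and 1.53 and 1.74 FPKM in control. Both CFZ_EA libraries lay above both control libraries, and the CFZ libraries were the highest and the lowest of the 6. The log2 fold change was 0.37 ± 0.30 for CFZ_EA against control (adjusted p = 0.877, edgeR) and 0.39 ± 0.30 for CFZ against control (adjusted p = 0.755, edgeR). The value of CFZ against control turned sign without CFZ replicate 1, at -0.08.

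**Figure D2:**
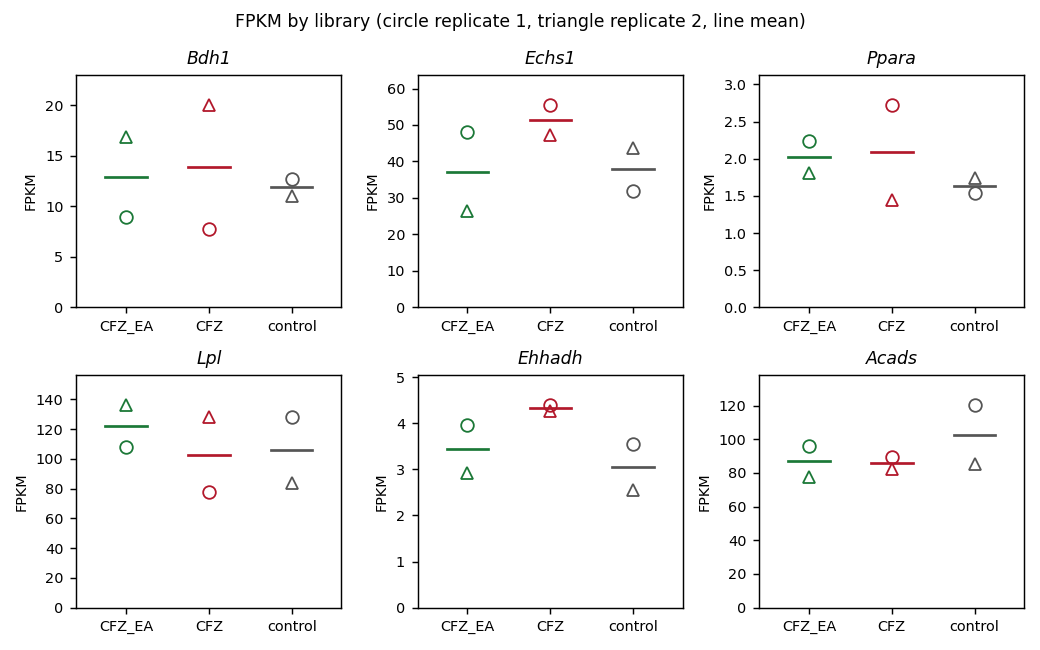
FPKM by library (linear axes from 0) of the 6 members Bdh1, Echs1, Ppara, Lpl, Ehhadh and Acads in CFZ_EA, CFZ and control, with replicate 1 as a circle, replicate 2 as a triangle and the mean as a line. Replicates of 1 group span most of the range, as with Bdh1 at 7.73 and 20.0 FPKM in CFZ, while Ehhadh is tight in CFZ at 4.39 and 4.26 FPKM.

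Set together, the fitted fold changes of CFZ over control were small and nearly all of 1 sign. They were above 0 for 35 of 36 members, beside 49.5% of all tested genes, with a median log2 fold change of 0.20 against -0.0034 over all genes and a range of -0.21 to 0.55. Their standard errors, each for 1 gene, had a median of 0.19. All 36 were measured in the same libraries, so their signs are not separate observations. Between replicates, the members' median per library had an SD of 0.15 on the log2 scale, pooled over CFZ and control. The 95% interval included 0 for all 36, left out a 2-fold difference for 32 and left out a 1.5-fold difference for 11. FPKM ranges did not overlap for 16 members, all higher in CFZ, beside 12.5% of all genes higher, and for 0 members lower, beside 20.8%. The medians over roles ran from 0.09 for uptake to 0.32 for the peroxisomal pair, and 0.39 for Ppara alone. On scales not corrected by TMM, library totals alone or FPKM, 33 of 36 were above 0.

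With control replicate 2 left out the direction was far less even. The fold change of CFZ over control was then above 0 for 26 of 36 members, beside 51.1% of all genes, with a median of 0.04. Without control replicate 1 instead, it was above 0 for 36 of 36, beside 51% of all genes, with a median of 0.38. In that fit 15 of 36 members had an unadjusted p under 0.05, beside 17.4% of all genes, and 0 were called, beside 3.21% (332 genes, edgeR). The FPKM values were compared with each control library in turn. Both CFZ libraries were above control replicate 2 for 27 members (23.1% of all genes) and below it for 0 (50.3%). Against control replicate 1, both CFZ libraries were above for 17 members (33% of all genes), both below for 5 (29.2%), and control replicate 1 lay between them for 14 (37.8%).

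**Figure D3:**
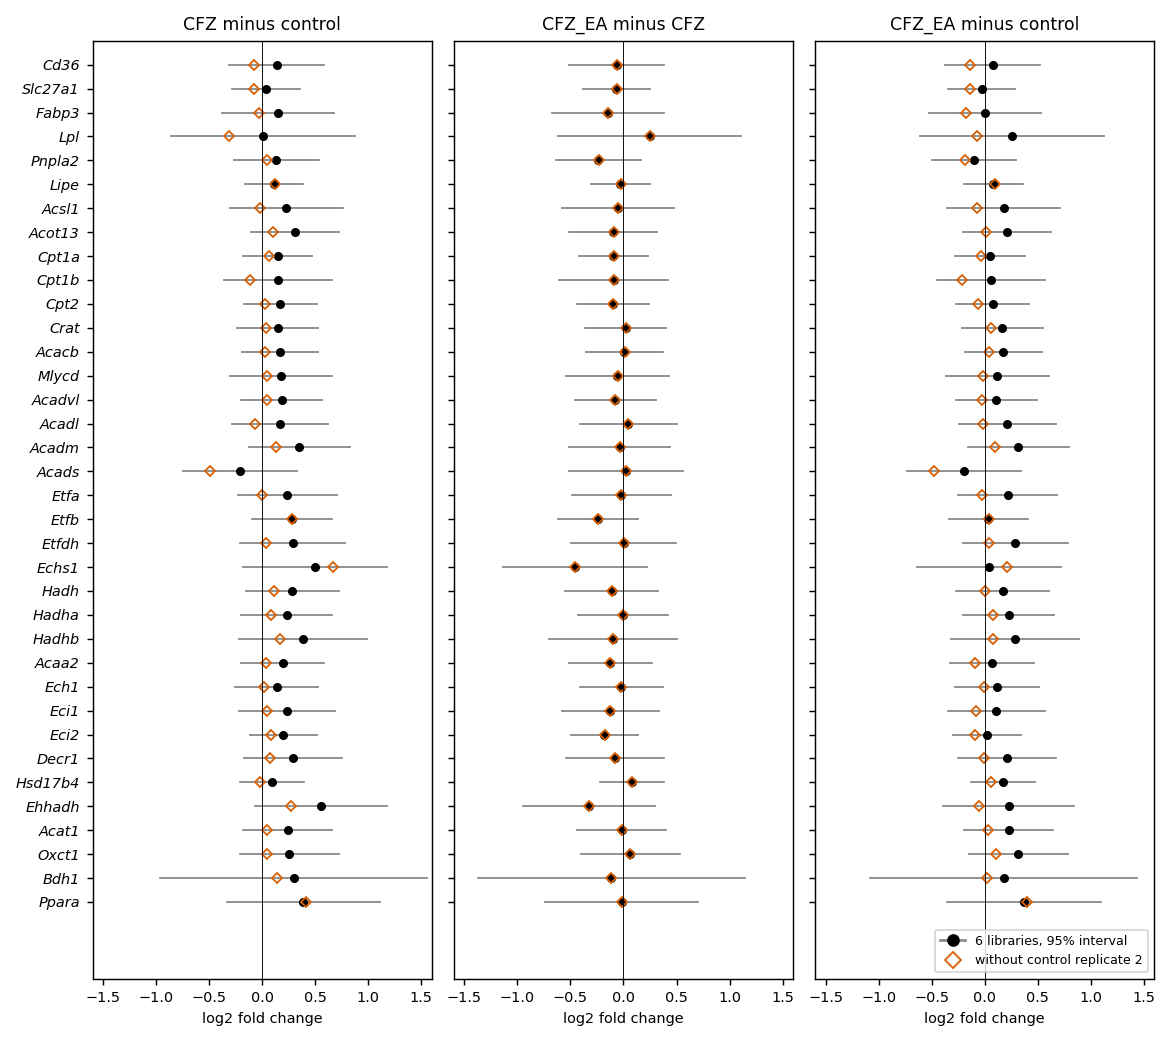
Log2 fold change of each of the 36 genes in the 3 comparisons, with all 6 libraries (filled circle, 95% interval) and without control replicate 2 (open diamond). For CFZ minus control 35 circles lie right of 0, against 26 diamonds, and all 36 intervals cross 0 in each panel.

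For CFZ_EA against CFZ the fold changes were above 0 for 8 of 36 members, beside 48.1% of all genes, with a median log2 fold change of -0.06, against -0.0084 over all genes. They ranged from -0.45 for Echs1 to 0.25 for Lpl (0.25 ± 0.35, SE), and that of Lpl turned sign without CFZ replicate 1, at -0.11. Hsd17b4 followed Lpl on the positive side with 0.08 ± 0.12. FPKM ranges did not overlap for 7 of 36 members, all lower in CFZ_EA, beside 17.7% of all genes lower, a share near the background. These were Pnpla2, Acot13, Cpt2, Etfb, Acaa2, Eci2 and Ehhadh. The count of members higher in CFZ_EA without overlap was 0, beside 15.1% of all genes. Adjusted p-values were 0.9997 to 0.9999 (edgeR), and the 95% interval left out a 2-fold difference for 33 and a 1.5-fold difference for 26. Without CFZ_EA replicate 2 the sign of the median turned, at 0.05, with 23 of 36 members above 0, beside 49.9% of all genes.

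For CFZ_EA against control, 33 of 36 fold changes were above 0, beside 49.7% of all genes, with a median log2 fold change of 0.17 against -0.0013 over all genes. On library totals alone the count was 27 of 36. Acads, Pnpla2 and Slc27a1 were below 0, Acads at -0.19 ± 0.22 (adjusted p = 0.903, edgeR), which turned to 0.16 without control replicate 1. FPKM ranges did not overlap for Ppara, higher in CFZ_EA, beside 10.5% of all genes higher, and for Pnpla2, lower, beside 22.1%. Leaving out control replicate 2 gave a median of -0.01, with 16 of 36 above 0, beside 50.6% of all genes. Both CFZ_EA libraries were above control replicate 2 for 24 members (23.7% of all genes) and below it for 2 (55%). Against control replicate 1, both were above for 2 members (31.6%) and below for 8 (30.7%), and control replicate 1 lay between them for 26 (37.7%). This comparison shares the control libraries with CFZ against control and the CFZ_EA libraries with CFZ_EA against CFZ, so the 3 sets of values are not independent. The replicate SD of the members' median per library was 0.11 for CFZ_EA against CFZ and 0.18 for CFZ_EA against control.

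Members were also described by library. On the log2 CPM scale (counts scaled to library size with TMM factors), each member was set against its mean over the 6 libraries. The median deviation was 0.14 and -0.07 in CFZ_EA, 0.07 and 0.12 in CFZ, and 0.04 and -0.26 in control. In control replicate 2, 0 of 36 members were above their mean, beside 50.9% of all genes, and in control replicate 1, 31 of 36 were, beside 49.3%. In CFZ_EA, 33 members were above it in replicate 1 (50.1% of all genes) and 8 in replicate 2 (47.2%), and in CFZ 25 (49.8%) and 32 (49.3%). Control replicate 2 had the lowest FPKM of the 6 for 21 members, beside 13% of all genes, and the highest for 0, beside 40.7%. CFZ_EA replicate 2 was the lowest for 9, beside 19.4%.

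**Figure D4:**
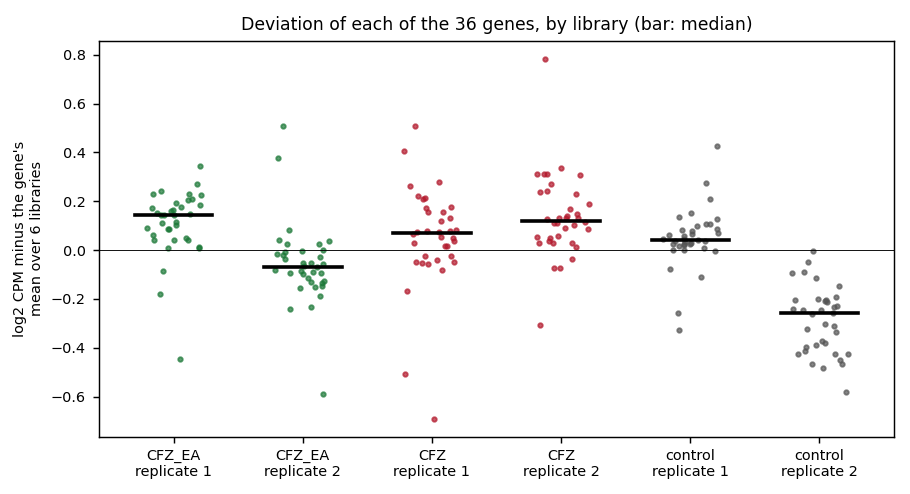
Log2 CPM of each of the 36 genes minus its mean over the 6 libraries, 1 point per gene in each library, with the median as a bar. The medians are 0.14 and -0.07 in CFZ_EA, 0.07 and 0.12 in CFZ, and 0.04 and -0.26 in control, where all 36 points of replicate 2 lie below 0.

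Replicates of a group were also set against each other on the log2 CPM scale. Replicate 1 exceeded replicate 2 by a median of 0.20 over the members in CFZ_EA (32 of 36 higher) and 0.34 in control (32 of 36), against -0.03 in CFZ (15 of 36). Over all genes these medians were within 0.02 of 0. Without regard to sign, the median difference was 0.21 over the members in CFZ_EA, against 0.16 over all genes. It was 0.15 against 0.19 in CFZ and 0.34 against 0.24 in control. The widest gap within each group was that of Bdh1 in CFZ and in CFZ_EA, where replicate 2 was the higher, and that of Lpl in control, where replicate 1 was.

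Marker lists of cell types also differed between libraries. The 16 cardiomyocyte markers had median deviations of 0.09 and -0.01 in CFZ_EA, 0.05 and 0.19 in CFZ, and -0.01 and -0.30 in control. For CFZ against control 16 of 16 were above 0 with a median log2 fold change of 0.29, and without control replicate 2, 14 of 16 with a median of 0.11. Fibroblast markers deviated by 1.23 and macrophage markers by 1.28 in control replicate 2, where the members were lowest. Atrial markers deviated by 0.05 and 2.51 in CFZ_EA, -1.41 and -3.60 in CFZ, and 1.68 and 0.56 in control. They were highest in CFZ_EA replicate 2, where the members were next lowest. They were next highest in control replicate 1, where 31 of 36 members were above their mean. The atrial median log2 fold change for CFZ against control was -3.55 (0 of 8 above 0), and -3.93 (0 of 8) without control replicate 2. The part of cell makeup in the members' levels was not tested, and in bulk tissue fewer cells of a type and less RNA per cell cannot be told apart. Fat, which also stores and burns fatty acids, was checked by its markers, which summed to 74.7 and 48.0 FPKM in CFZ_EA, 61.9 and 61.2 FPKM in CFZ, and 64.4 and 60.9 FPKM in control. Of 10 adipocyte markers listed, 9 were found and 3 passed the filter. Adipoq, Car3, Cidec, Lep, Plin1 and Retn averaged under 1 FPKM, and all of these but Adipoq were at 0 in at least 1 library. The sums therefore rest mainly on the 3 markers that passed.

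**Figure D5:**
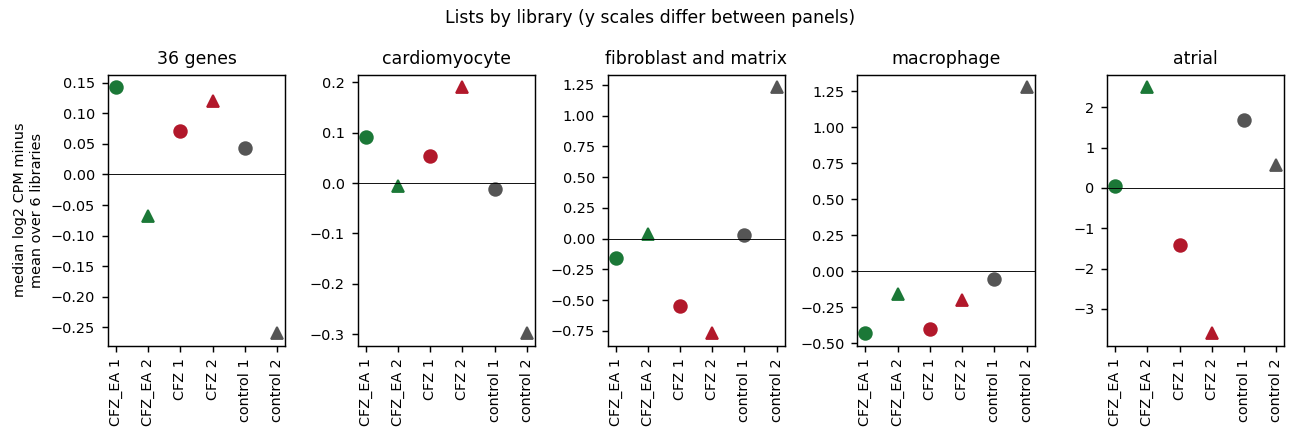
Median log2 CPM minus the mean over 6 libraries for the 36 genes and for cardiomyocyte, fibroblast and matrix, macrophage and atrial markers, 1 point per library in CFZ_EA, CFZ and control. Control replicate 2 is the lowest for the 36 genes (-0.26) and for cardiomyocyte markers (-0.30) and the highest for fibroblast (1.23) and macrophage (1.28) markers.

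Other genes of the pathway were counted from a list of 81 that holds no member, 68 of which were tested. None was called by edgeR in any comparison. For CFZ against control 4 were above and 2 below control at an unadjusted p under 0.05 (edgeR), beside 7.72% of all genes in either direction. Of 68 fold changes 47 were above 0, beside 49.5% of all genes. The median log2 fold change was 0.15, or 0.05 without control replicate 2. For CFZ_EA against CFZ 2 were above and 3 below CFZ at an unadjusted p under 0.05, beside 3.09% of all genes. In that comparison 25 of 68 were above 0, beside 48.1%, and the median was -0.02. For CFZ_EA against control the counts were 0 and 0, beside 5.13% of all genes. There 48 of 68 were above 0, beside 49.7%, and the median was 0.08. Without control replicate 2 these were 35 of 68, beside 50.6%, and 0.03. Without CFZ_EA replicate 2 the count for CFZ_EA against CFZ was 32 of 68, beside 49.9%, with a median of -0.02.

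The widest differences in the pathway were in genes outside the 36. Acadsb, the dehydrogenase of short branched chains, which serves isoleucine breakdown, measured 5.25 and 2.06 FPKM in CFZ_EA, 1.35 and 1.33 FPKM in CFZ, and 5.22 and 4.31 FPKM in control. Both CFZ libraries were below all other libraries, with no overlap. The log2 fold change was -1.78 ± 0.42 for CFZ against control (adjusted p = 0.608, edgeR) and -1.97 without control replicate 2, and 1.45 ± 0.42 for CFZ_EA against CFZ (adjusted p = 0.9997, edgeR), or 0.66 without CFZ_EA replicate 1. Mgll, the lipase that completes triglyceride breakdown by cleaving monoglycerides, measured 8.29 and 5.81 FPKM in CFZ_EA, 12.6 and 30.3 FPKM in CFZ, and 7.31 and 8.17 FPKM in control. Both CFZ libraries were above the other 4, and they differed from each other more than the other groups' libraries did. Its log2 fold change was 1.55 ± 0.43 for CFZ against control (adjusted p = 0.608, edgeR) and -1.62 ± 0.43 for CFZ_EA against CFZ (adjusted p = 0.9997, edgeR). Without CFZ replicate 2 these were 0.71 and -0.77. DESeq2 called Acadsb (adjusted p = 0.00569) and Mgll (adjusted p = 0.0266) for CFZ against control, and Mgll for CFZ_EA against CFZ (adjusted p = 0.0287).

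Pparg, the PPAR of fat cells, measured 1.70 and 2.17 FPKM in CFZ_EA, 2.65 and 3.39 FPKM in CFZ, and 1.88 and 2.07 FPKM in control. Its log2 fold change was 0.67 ± 0.24 for CFZ against control (adjusted p = 0.608, edgeR), or 0.43 without CFZ replicate 2. Fabp4, the fatty acid binding protein of fat and capillary endothelium, measured 91.1 and 86.7 FPKM in CFZ_EA, 113 and 156 FPKM in CFZ, and 118 and 111 FPKM in control. For both genes neither CFZ library overlapped CFZ_EA, and the Fabp4 log2 fold change of CFZ_EA over CFZ was -0.60 ± 0.21 (adjusted p = 0.9997, edgeR), or -0.28 without CFZ replicate 2. For CFZ_EA against control the smallest p-values belonged to Pex11a, a peroxisomal membrane protein (log2 fold change 0.40 ± 0.20), Esrrg, an oestrogen-related receptor (0.35 ± 0.17), and Prkaa2, a catalytic subunit of AMP-activated kinase (0.42 ± 0.21). Each of these had an adjusted p of 0.848 (edgeR). Pex11a measured 5.37 and 4.58 FPKM in CFZ_EA, 4.05 and 4.88 FPKM in CFZ, and 4.10 and 3.73 FPKM in control. Esrrg measured 1.31 and 1.32 FPKM in CFZ_EA, 1.23 and 1.10 FPKM in CFZ, and 1.10 and 1.04 FPKM in control. Prkaa2 measured 5.92 and 6.25 FPKM in CFZ_EA, 5.82 and 5.36 FPKM in CFZ, and 5.52 and 3.95 FPKM in control. In all 3 genes both CFZ_EA libraries were above both control libraries and control replicate 2 was the lowest of the 6. Without control replicate 2 the log2 fold changes were 0.27 for Pex11a, 0.25 for Esrrg and 0.14 for Prkaa2.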

How the data were processed

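Hearts were measured in 6 libraries, 2 per group. Per the labels' protocols, mRNA was selected with oligo(dT), libraries marked strand and 150-base read pairs were sequenced. Tools in the submitters' processing notes are HISAT2 2.0.4, StringTie 1.3.4d and cutadapt 1.9, with the build GRCm38. Tool roles, annotation release and use of strand were not given in the sources used here. Each library has an FPKM column and a count column, made by the authors, per the file headers. The deposited counts were treated as estimated counts. Multiples of 4 made up 42.2% to 43.3% of counts from 1 to 20 (chance gives 25%), and 1 count is therefore possibly not a whole read.

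Tests covered genes averaging 1 FPKM or more over the libraries, with edgeR 4.0.16 (R 4.3.3; quasi-likelihood, TMM factors, 1 fit of 6 libraries, group as the only term, 3 residual degrees of freedom) and Benjamini-Hochberg adjustment over all 10329. Errors of log2 fold changes are standard errors derived from the F statistic of the quasi-likelihood test, and intervals are 95% and unadjusted. The intervals use edgeR's total degrees of freedom, which add those gained by pooling spread over genes to the residual ones. DESeq2 1.42.0, limma 3.58.1, other scalings and filters, a replicate block and each library left out were alternatives, and counts divided by 4 were added after seeing the data. Exact permutation of 2 against 2 libraries (two-sided) has a smallest p of 0.333 and was not used. On simulated counts, 17.9% of 2-fold changes were called for CFZ against control. The share was 23.9% for CFZ_EA against CFZ and 25.4% for CFZ_EA against control. For 4-fold changes the shares were 98.5%, 89.6% and 94.0% in the same order. Unchanged genes gave 17, 12 and 16 false calls. Changes smaller than 2-fold were not simulated. Changed genes were drawn only from genes above a count limit, and each gene varied independently with its fitted spread. No simulated library stood apart as control replicate 2 did, so the shares may not hold for the real libraries. The members and all gene lists were chosen with earlier results of these data known. Values in every library are given for the 2 members with the smallest p per comparison and direction, the most abundant member of each role and Ppara, and for the 3 other pathway genes with the smallest p per comparison. Bdh1 was added after its values were seen.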

Additional observations from a re-analysis of the deposited data

How the results depend on the processing

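No member was called under any setting tried (scaling, filter, DESeq2, limma, 2 groups only, replicate block, each library left out, counts divided by 4), and the smallest adjusted p of a member over all of these was 0.133, for CFZ against control without control replicate 1. The median log2 fold change of the members for CFZ against control was 0.0416 to 0.382 with 1 library left out, lowest without control replicate 2 (0.0416, likewise with CFZ_EA replicate 2 also left out) and highest without control replicate 1. For CFZ_EA against CFZ it was -0.144 to 0.0462 and turned sign without CFZ_EA replicate 2 (0.0462, and 0.0493 with control replicate 2 also left out). For CFZ_EA against control it was -0.0125 to 0.335 and turned sign without control replicate 2 (-0.0125). These values rest on single libraries; the cause was not tested.

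Calls over all genes, given as CFZ against control, CFZ_EA against CFZ and CFZ_EA against control, were 3, 2 and 0. DESeq2 gave 138, 55 and 52, the 2 compared groups alone 0, 3 and 0, counts divided by 4 gave 1, 1 and 0, and leaving out control replicate 2 with CFZ_EA replicate 2 gave 32, 3 and 1. Over the fits without 1 library the counts were 0 to 332, 0 to 4 and 0 to 231, the highest for both control comparisons without control replicate 1. Other pathway genes called were 0, against 2 (CFZ against control) and 1 (CFZ_EA against CFZ) by DESeq2, and 1 (CFZ against control) with both libraries left out, Acadsb.

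Whether replicate numbers pair the samples could not be decided with 2 libraries a group. Deviations of same-numbered libraries correlated at 0.08 for CFZ and CFZ_EA, -0.07 for CFZ and control, and -0.07 for CFZ_EA and control (Pearson's r over 10329 genes). With the replicate number as a block, 0 members were called, the medians were 0.20, -0.06 and 0.14, and calls over all genes were 2, 2 and 0. With 2 libraries a group the 95% interval left out a 1.5-fold difference for 11, 26 and 17 of 36 members, and no limit can be set at that size for the others.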

Other observations

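The deposited annotation places 17 of the 36 genes among 41 genes of fatty acid degradation, 12 among 69 of PPAR signalling and 3 among 9 of ketone body synthesis and degradation. Of the tested genes of fatty acid degradation, 23 of 31 had a fold change above 0 for CFZ against control (median log2 fold change 0.18, and 0.04 without control replicate 2) and 8 of 31 for CFZ_EA against CFZ (median -0.07, turning to 0.01 with 17 of 31 without CFZ_EA replicate 2). PPAR signalling had 33 of 47 above 0 for CFZ against control (median 0.11, and -0.02 without control replicate 2) and 16 of 47 for CFZ_EA against CFZ (median -0.04, and -0.0022 with 23 of 47 without CFZ_EA replicate 2). The ketone body genes had 5 of 7 (median 0.25, and 0.11 without control replicate 2) and 3 of 7 (median -0.01, turning to 0.09 with 4 of 7 without CFZ_EA replicate 2). No gene of these pathways was called by edgeR. At an unadjusted p under 0.05 (edgeR) there were 1, 2 and 0 genes for CFZ against control, in the same order of pathways, beside 7.72% of all genes. For CFZ_EA against CFZ there were 1, 3 and 0, beside 3.09%. Over all tested genes, 49.5% of fold changes were above 0 for CFZ against control and 48.1% for CFZ_EA against CFZ. The pathway counts include 17, 12 and 3 of the members, in the same order of pathways. They therefore partly repeat the members' own counts, and genes outside the 36 were not counted apart here.

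Among the remaining marker lists, for CFZ against control, endothelial markers had a median log2 fold change of 0.05 (6 of 10 above 0), smooth muscle and pericyte markers -0.25 (3 of 8), erythroid markers -0.77 (0 of 5), epicardial and mesothelial markers -3.39 (0 of 6), skeletal muscle markers -1.05 (0 of 2) and adipocyte markers 0.03 (2 of 3). Without control replicate 2 the endothelial median turned to -0.03 (4 of 10) and the adipocyte median to -0.06 (0 of 3), while the others were -0.03 for smooth muscle and pericyte (2 of 8), -0.72 for erythroid (0 of 5), -2.62 for epicardial and mesothelial (0 of 6) and -1.25 for skeletal muscle markers (0 of 2). Epicardial markers summed to 4.88 and 13.0 FPKM in CFZ_EA, 4.48 and 3.96 FPKM in CFZ, and 21.6 and 54.0 FPKM in control. Their part in the values of the 36 genes was not tested.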
